A study of Mus musculus with 18 samples.

Results

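Glucocorticoids act on the liver through the glucocorticoid receptor, and 7 of the 54532 genes in the deposited tables are described here: the receptor gene Nr3c1, 5 genes that glucocorticoids are known to induce (Fkbp5, Tsc22d3, Tat, Sgk1 and Zbtb16), and Lepr, the leptin receptor gene. They were picked by name, with their levels in these mice already known. Every difference between diets given for them is therefore a description, and no test result given for them counts as support. The mice were male wild-type C57BL/6J animals that began a control diet (Ctrl) or an isocaloric diet lowered by 99% in riboflavin (B2D) at 4 wk of age. In the first experiment 5 Ctrl and 5 B2D mice were kept on the diet for 1 month and fasted overnight. In the second, 4 Ctrl+FF and 4 B2D+FF mice were kept on the same diets for 9 wk, were gavaged daily with 300 mg/kg fenofibrate (FF), a drug that activates PPARα, from week 7 to week 9, and were fasted overnight with a dose 2 hr before the final measurements. Liver RNA was sequenced with 1 library per mouse. The experiments differ in drug, in weeks of diet and in the table that holds them, the parts of which cannot be told apart, and levels from the 2 tables are only set side by side.

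In a resting cell the glucocorticoid receptor is held in the cytosol by HSP90 and its partner proteins. Corticosterone, the main glucocorticoid of mice, releases it to the nucleus, where it binds DNA and switches genes on or off. In the fasted liver it takes part in the breakdown of amino acids and the making of glucose, and its known targets include brakes on its own signal. The leptin receptor is best known from the brain, where it signals through JAK2 and STAT3, and its hepatic transcripts include a short form that is a source of circulating receptor. The tables give 1 value per gene and do not separate such forms.

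Of the 7 genes, 5 had promoter windows in the RefSeq set of GRCm38.p6 (13 windows, each running from 250 bases before a transcription start to 50 bases after it), and Zbtb16 and Nr3c1 had no entry. The windows were searched on both strands for the full palindromic glucocorticoid response element, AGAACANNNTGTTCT, and for the single hexamer that forms each of its arms, AGAACA, which reads TGTTCT on the other strand. Each full element contains a hexamer on each strand. Only 3 of 32851 windows in the whole set held the full element (0.00913%), and 1 of them belonged to Sgk1. The hexamer was common, with 1 or more in 19.0% of all windows. The windows of Sgk1, Lepr, Tat and Fkbp5 are shown because the first holds the full element, and the others belong to genes that were higher on the deficient diet in at least 1 experiment. Capitals mark the full element and single hexamers.
Sgk1, chr10:21993640-21993939, plus strand: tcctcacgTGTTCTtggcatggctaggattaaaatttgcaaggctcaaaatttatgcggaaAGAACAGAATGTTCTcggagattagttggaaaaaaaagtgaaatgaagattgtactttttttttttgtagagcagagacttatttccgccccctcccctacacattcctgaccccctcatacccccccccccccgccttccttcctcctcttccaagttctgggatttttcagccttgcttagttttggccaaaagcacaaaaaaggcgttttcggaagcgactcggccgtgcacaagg
Lepr, chr4:101717157-101717456, plus strand: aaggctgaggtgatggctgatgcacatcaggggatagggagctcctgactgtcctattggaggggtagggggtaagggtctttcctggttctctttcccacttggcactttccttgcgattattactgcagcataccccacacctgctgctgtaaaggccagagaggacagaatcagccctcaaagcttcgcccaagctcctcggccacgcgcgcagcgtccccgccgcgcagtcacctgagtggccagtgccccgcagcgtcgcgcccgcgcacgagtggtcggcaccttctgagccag
Tat, chr8:109990186-109990485, plus strand: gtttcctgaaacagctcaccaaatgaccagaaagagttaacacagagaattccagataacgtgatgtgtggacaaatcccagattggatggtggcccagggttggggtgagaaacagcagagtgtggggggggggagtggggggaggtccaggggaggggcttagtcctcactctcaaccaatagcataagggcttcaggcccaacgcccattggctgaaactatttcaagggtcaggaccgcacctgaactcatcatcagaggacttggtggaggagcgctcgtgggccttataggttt
Fkbp5, chr17:28486100-28486399, minus strand: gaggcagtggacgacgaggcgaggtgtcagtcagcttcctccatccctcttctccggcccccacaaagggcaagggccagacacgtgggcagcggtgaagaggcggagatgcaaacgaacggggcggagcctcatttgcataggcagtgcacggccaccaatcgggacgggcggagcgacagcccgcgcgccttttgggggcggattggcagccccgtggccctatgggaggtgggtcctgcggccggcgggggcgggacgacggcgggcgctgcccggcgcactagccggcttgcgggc
The full element of Sgk1 read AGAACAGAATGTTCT and began at position -189 from the start of that window's transcript, with a further hexamer at -242. Of the 6 Sgk1 windows 3 held a hexamer, as did 1 of the 3 Tsc22d3 windows. Neither motif was found in the 2 Lepr windows, the Tat window or the Fkbp5 window. These letters describe 300 bases around annotated starts and leave out enhancers farther away.

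The genes differed widely in level. FPKM (fragments per kilobase of exon, scaled for library size) can be compared between genes. Tat was the highest of the 7 in all 4 groups, and in Ctrl its mean of 700 FPKM was followed by Tsc22d3 at 17.995, Lepr at 10.7, Nr3c1 at 10.3, Fkbp5 at 10.1, Sgk1 at 5.01 and Zbtb16 at 4.03. Lepr, Nr3c1 and Fkbp5 overlapped one another in Ctrl, and so did Sgk1 and Zbtb16. In B2D the mean of Lepr stood second at 44.3 FPKM, and every B2D mouse had more Lepr than Fkbp5, Nr3c1, Sgk1 or Zbtb16. In B2D+FF Lepr was again second, at 19.0 FPKM, but its range overlapped those of Fkbp5, Tsc22d3 and Zbtb16. The lowest count behind any of these values was 155 reads, for Zbtb16 in one B2D mouse, and the highest was 70268, for Tat in one Ctrl mouse.

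The libraries held between 15320729 and 21898502 reads on genes, and Pearson correlations within a group were between 0.955 and 0.989. All 6 hepatocyte markers were tested. By limma 0 passed the threshold in either experiment (0 and 3 at an unadjusted p under 0.05, and 0 by voom on recovered reads), though their summed FPKM, set side by side across the tables, ran from 17867 to 23763 with the drug and from 29602 to 44109 without it. With the drug the sum was 20803.5 or more in every Ctrl+FF mouse and 20426.5 or less in every B2D+FF mouse. Without the drug the diets overlapped. One library stood apart: B2D 2 had a summed FPKM of 36.0 over 4 adipocyte markers, against at most 0.784 in the other mice of that experiment. With fenofibrate this sum ran from 6.21 to 22.4 in the Ctrl+FF mice but from 0.597 to 4.46 in the B2D+FF mice. Of the 4 markers only 1, Cfd, was tested there, and it was lower in B2D+FF. Lep, the leptin gene, stayed under 0.1 FPKM in every library. Of the other lists, 1 of 6 Kupffer cell markers (Clec4f) was lower in B2D, 1 of 6 endothelial (Lyve1) and 1 of 3 tested neutrophil markers (Retnlg) were higher in B2D+FF, and Alas2, 1 of 5 erythroid markers, was lower in both B2D and B2D+FF. The stellate cell, cholangiocyte and lymphocyte lists had 0 markers past the threshold by limma, with at most 1 each at an unadjusted p under 0.05 and 1 stellate cell marker by voom in B2D+FF. Not all of these were tested: 5 of 6 stellate cell markers in each experiment, and 3 and 2 of 6 cholangiocyte markers. Of 9 lymphocyte markers 1 was tested without fenofibrate and 0 with it, so the latter count could only be 0. The summed FPKM of the lymphocyte markers was 0.253 to 0.984 in B2D+FF and 1.13 to 1.79 in Ctrl+FF. The part of these in the results was not tested.

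**Figure D1:**
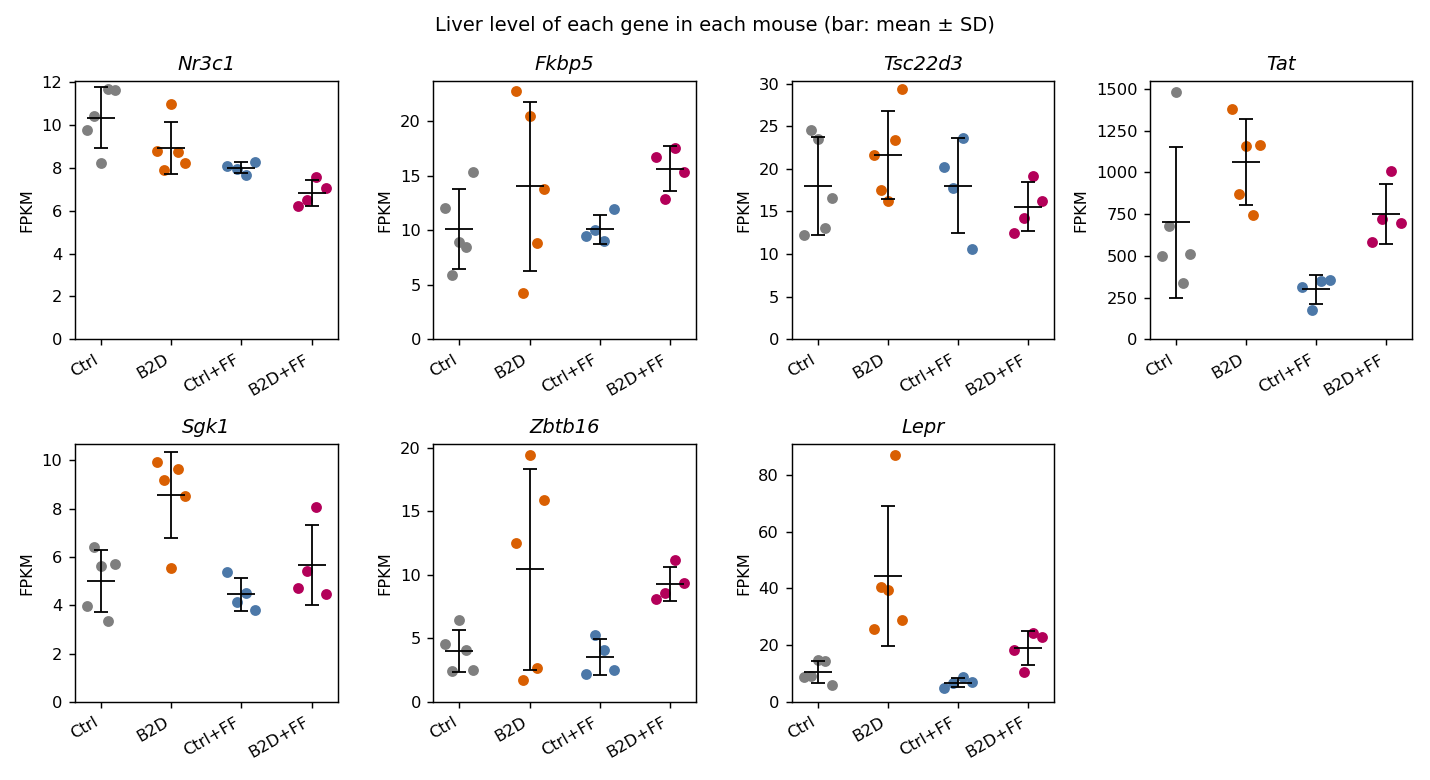
FPKM of each of the 7 genes (vertical axis, from 0, a separate scale per panel) in each mouse of the 4 groups. Points are mice and black bars the mean ± SD. The B2D mice lie above all Ctrl mice for Lepr, and the B2D+FF mice lie above all Ctrl+FF mice for Fkbp5, Tat, Zbtb16 and Lepr.

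The diets were compared by limma on log2(FPKM + 1), leaving out genes whose mean FPKM was under 0.5, at a Benjamini-Hochberg adjusted p of 0.05, and all 7 genes passed the filter in both tables. Without fenofibrate 1 of the 7, Lepr, was past this threshold, where 2.70% of 11574 genes were. With fenofibrate 4 of the 7 (Zbtb16, Tat, Lepr and Fkbp5) were past it, all higher in B2D+FF, where 4.45% of 11878 genes were past it and 2.24% were higher. As the genes were named with these results known, nothing is read from these counts. The same holds below for the call of any 1 of these genes and for the settings under which it held. The median log2 fold change of the 7 was 0.68 in B2D and 0.58 in B2D+FF, and that of all genes tested was -0.00132 and 0.0128. Log2 fold changes are given below with their standard error (SE), and the +1 makes them smaller for genes of low FPKM. In whole liver, fewer cells of a type and less RNA per cell cannot be told apart.

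Nr3c1, on chromosome 18, encodes the glucocorticoid receptor itself. Its level was 9.77, 10.4, 8.23, 11.7 and 11.6 FPKM in the Ctrl mice and 8.79, 7.92, 10.97, 8.74 and 8.22 FPKM in the B2D mice. All B2D mice but B2D 3 were under 9 FPKM, yet the groups overlapped, and the log2 fold change was -0.19 (SE 0.12). In Ctrl+FF it was 8.09, 7.93, 7.69 and 8.29 FPKM, and in B2D+FF 6.21, 6.48, 7.58 and 7.06 FPKM. Here every deficient mouse was below every control mouse, as for 6.44% of the genes tested. The difference was small: the means were 8.0 ± 0.255 and 6.83 ± 0.608 FPKM (SD, n = 4 each), with a log2 fold change of -0.20 (SE 0.08) that was not past the threshold. Of the 7 genes Nr3c1 varied least between mice, with a coefficient of variation from 3.19% in Ctrl+FF to 13.9% in Ctrl.

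Fkbp5 (chr17:28399094-28517527, minus strand, GRCm38) encodes a partner of HSP90 that lowers the receptor's affinity for hormone, so its induction is a short feedback loop. In Ctrl it was measured at 12.0, 5.93, 8.88, 8.42 and 15.3 FPKM, and in B2D at 22.8, 4.23, 20.5, 8.84 and 13.8 FPKM. B2D 1 and B2D 3 were above every Ctrl mouse, while B2D 2 was below every one. The 5.38-fold range within B2D was wider than the 2.58-fold range within Ctrl, and the log2 fold change of 0.30 (SE 0.38) came to 0.63 without B2D 2. With fenofibrate the picture was tighter. Fkbp5 was 9.44, 10.01, 8.97 and 12.0 FPKM in Ctrl+FF and 16.8, 12.9, 17.6 and 15.3 FPKM in B2D+FF, so that all 4 deficient mice were above all controls, as for 7.82% of the genes tested. The ratio of the means was 1.55 and the log2 fold change 0.58 (SE 0.12), which was no longer past the threshold with no filter or when Ctrl+FF 1, 2 or 3 or B2D+FF 1, 3 or 4 was left out, with values from 0.53 to 0.67 when a mouse was left out. The gene shares its interval with 4 other annotated genes. The library kit keeps no strand, and AC154912.1 on the opposite strand, with at most 6.58 FPKM in any library, cannot be fully separated from it.

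Tsc22d3 (chrX:140539528-140600659, minus strand) encodes GILZ, a glucocorticoid-induced leucine zipper protein that dampens inflammatory signals. Its Ctrl mice had 12.3, 24.6, 23.5, 13.1 and 16.6 FPKM, and the B2D mice 21.7, 17.5, 16.2, 23.3 and 29.4 FPKM. Only B2D 5 was above the Ctrl range, and the log2 fold change was 0.28 (SE 0.21, 95% interval from -0.19 to 0.74). With fenofibrate the values were 20.2, 17.7, 23.6 and 10.6 FPKM in Ctrl+FF and 12.5, 14.2, 19.2 and 16.3 FPKM in B2D+FF. All 4 B2D+FF mice lay inside the control range. The log2 fold change was -0.16 (95% interval from -0.67 to 0.34), which leaves room for a change in either direction.

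Tat (chr8:109990437-109999803, plus strand) encodes tyrosine aminotransferase, a liver enzyme that begins the breakdown of tyrosine and a classical target of glucocorticoids and fasting. In Ctrl it was 496, 680, 1481, 335 and 508 FPKM. The third mouse, Ctrl 3, had more than any B2D mouse, whose values were 1380, 868, 1159, 741 and 1162 FPKM. The other 4 Ctrl mice were below all B2D mice. The log2 fold change was 0.76 (SE 0.33) and not past the threshold, but without Ctrl 3 it was 1.08 and past it. With fenofibrate Tat was 316, 175, 351 and 354 FPKM in Ctrl+FF and 584, 718, 1007 and 694 FPKM in B2D+FF. The lowest deficient mouse was thus well above the highest control, and all deficient mice were above all controls for 7.82% of the genes tested. The means were 299 ± 84.6 and 751 ± 181 FPKM, a ratio of 2.51, and the log2 fold change was 1.35 (SE 0.25), which fell short of the threshold only without Ctrl+FF 1 or with no filter on low genes. Side by side, both fenofibrate groups had lower Tat means than the groups of the same diet without the drug.

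Sgk1 (chr10:21882184-21999903, plus strand) encodes a serum and glucocorticoid regulated kinase known for its control of ion transport, and it is the gene whose promoter window holds the full response element shown above. It was 3.98, 6.39, 5.63, 3.34 and 5.70 FPKM in Ctrl and 9.93, 9.18, 5.53, 9.65 and 8.53 FPKM in B2D. Of these B2D values 4 stood above the whole Ctrl range, and B2D 3 stood within it. The ratio of the means was 1.71 and the log2 fold change 0.68 (SE 0.18). It was not past the threshold, but was past it without B2D 3 (0.81) and by limma voom on the recovered reads (0.79). With fenofibrate Sgk1 was 5.39, 4.15, 4.51 and 3.80 FPKM in Ctrl+FF and 4.72, 5.41, 8.08 and 4.45 FPKM in B2D+FF. Only B2D+FF 3 was clearly above the controls, and the log2 fold change of 0.26 (SE 0.16) was 0.11 without that mouse.

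Zbtb16 (chr9:48654297-48836222, minus strand) encodes PLZF, a zinc finger transcription factor that glucocorticoids induce in many tissues. Its level was 4.60, 2.45, 6.49, 4.09 and 2.53 FPKM in Ctrl. In B2D it was 12.5, 1.72, 19.4, 2.66 and 15.9 FPKM. B2D 1, 3 and 5 were thus all above the highest Ctrl mouse, B2D 4 was inside the Ctrl range and B2D 2 below it, an 11.3-fold range within 1 group. The log2 fold change of 0.83 (SE 0.52) ran from 0.52 without B2D 3 to 1.25 without B2D 2, and was past the threshold under none of the 15 alternative settings. With fenofibrate the values were 2.23, 5.26, 4.06 and 2.54 FPKM in Ctrl+FF and 8.09, 8.54, 11.2 and 9.34 FPKM in B2D+FF. All deficient mice were above all controls, as for 7.82% of the genes tested, and none was near them. The coefficient of variation in B2D+FF was 14.5% against 75.9% in B2D. The ratio of the means was 2.64 and the log2 fold change 1.23 (SE 0.20), past the threshold under all 13 alternative settings.

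Lepr (chr4:101717404-101815352, plus strand) was 8.94, 9.16, 14.95, 14.4 and 5.86 FPKM in Ctrl and 25.8, 40.6, 39.4, 86.9 and 28.7 FPKM in B2D. Every B2D mouse was above every Ctrl mouse, as for 2.08% of the genes tested, and B2D 4 had more than any other mouse of the study. Without B2D 4 the log2 fold change fell from 1.89 to 1.61, still past the threshold, which was missed only when genes of low FPKM were also tested. With fenofibrate Lepr was 4.75, 6.63, 8.77 and 6.92 FPKM in Ctrl+FF and 18.2, 10.6, 24.4 and 22.7 FPKM in B2D+FF. Every B2D+FF mouse was again above every Ctrl+FF mouse, as for 7.82% of the genes tested, though B2D+FF 2 was close to the top control. The means were 6.77 ± 1.65 and 19.0 ± 6.14 FPKM, a ratio of 2.81, and the log2 fold change was 1.33 (SE 0.25). It missed the threshold without Ctrl+FF 1 or 2, without B2D+FF 1 or 4, and with no filter, with values from 1.19 to 1.57 when a mouse was left out.

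**Figure D2:**
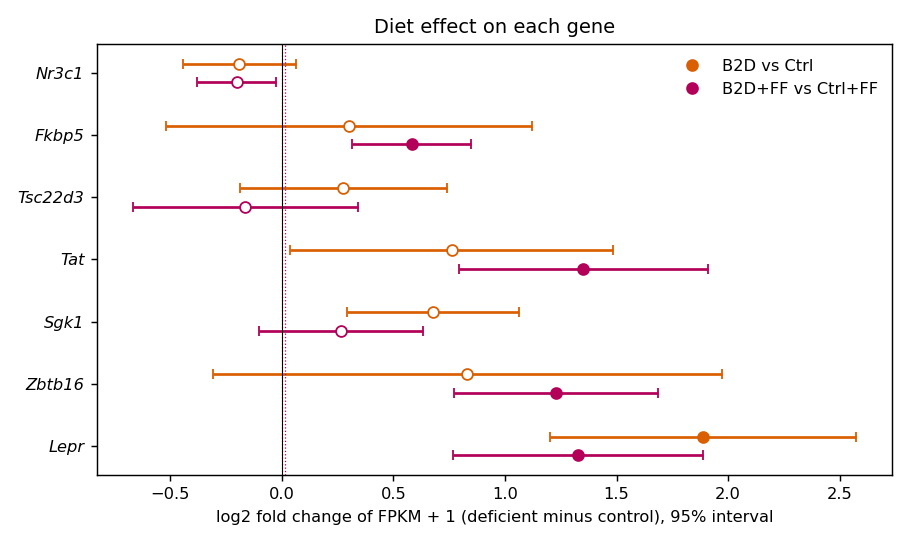
Log2 fold change of FPKM + 1 (horizontal axis, deficient minus control) of each of the 7 genes with its 95% interval, without fenofibrate (orange) and with it (magenta). Filled points were past the threshold, and dotted lines mark the medians of all genes tested. Lepr is the 1 filled point without the drug, and Fkbp5, Tat, Zbtb16 and Lepr are filled with it.

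The diet effects of the 2 experiments were set against each other in 1 fit of all 18 libraries, in which 0.228% of 11862 genes were past the threshold. None of the 7 was. The difference, effect with fenofibrate minus effect without, was 0.59 (95% interval from -0.39 to 1.57) for Tat and 0.40 (from -1.01 to 1.81) for Zbtb16. For Lepr it was -0.56 (from -1.51 to 0.39) and for Sgk1 -0.41 (from -0.96 to 0.13). These intervals are wide, and a gene past the threshold in 1 experiment alone is therefore not shown to respond differently in the other.

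Without fenofibrate, the B2D mice with high Fkbp5 were not those with the highest Lepr. In that group B2D 1, 3 and 5 were the highest 3 for Fkbp5, Zbtb16 and Tat alike, and B2D 2 was the lowest for both Fkbp5 and Zbtb16. Lepr had another order, with B2D 4 and B2D 2 on top. After group means were removed, the Pearson correlation over the 10 mice was 0.75 between Fkbp5 and Zbtb16 and 0.72 between Tsc22d3 and Sgk1, and it was -0.48 between Fkbp5 and Lepr. Over the 8 mice with fenofibrate the same 3 values were -0.06, 0.59 and 0.53, so that the first and the last changed sign. In B2D+FF mouse 3 was the highest and mouse 2 the lowest for both Fkbp5 and Lepr, and with the group means kept their correlation over the 8 mice was 0.89. With the group means removed, 10 of the 21 pairs of genes were positive in the first experiment and 18 in the second, and 9 had the same sign in both. The points share libraries and the scaling of their table, and these values are descriptions.

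**Figure D3:**
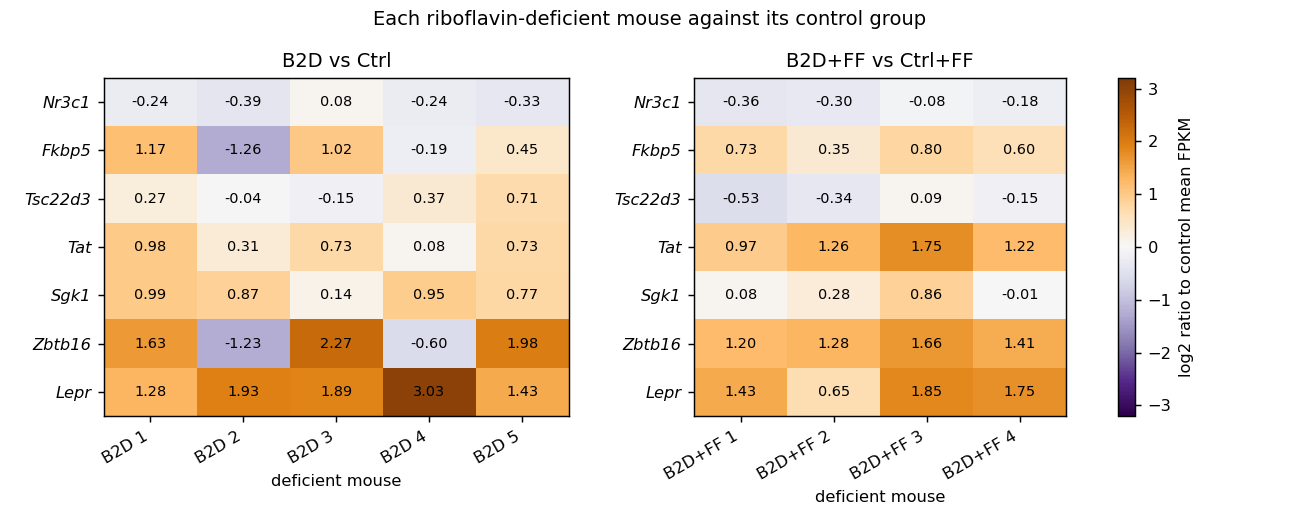
Log2 ratio of each deficient mouse (columns) to the mean FPKM of its control group for each gene (rows), from purple (lower) to orange (higher). In B2D 2 and B2D 4 Fkbp5 and Zbtb16 are below the Ctrl mean while Lepr is 1.93 and 3.03 above it on the log2 scale, whereas all 4 B2D+FF mice are above their controls for Fkbp5, Tat, Zbtb16 and Lepr.

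**Figure D4:**
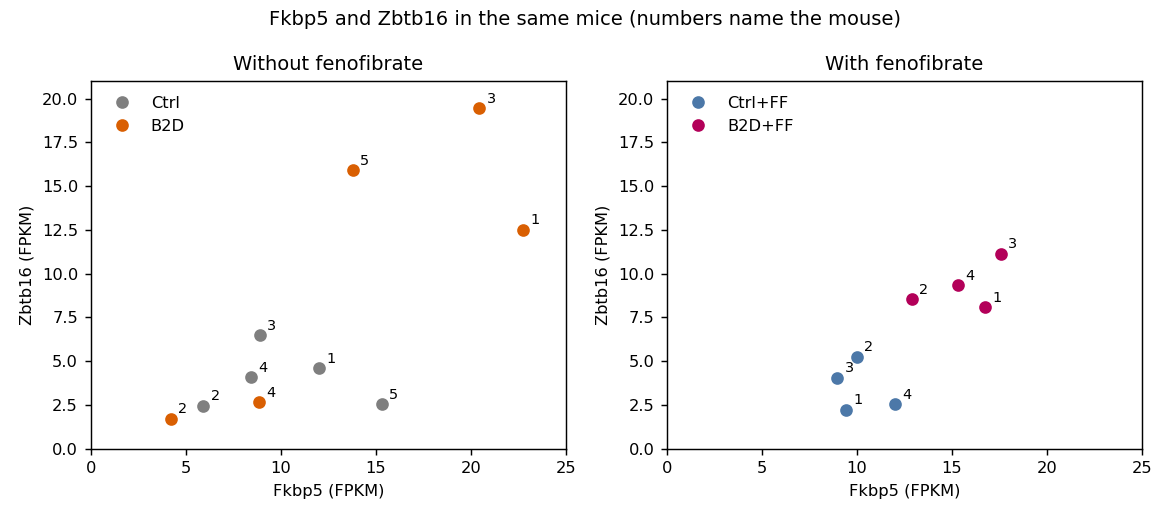
Zbtb16 against Fkbp5, both in FPKM, with 1 point per mouse, numbered within its group, without fenofibrate (left) and with it (right). B2D 1, 3 and 5 lie apart at the upper right, B2D 4 lies among the Ctrl mice, B2D 2 lies below all of them on both axes, and the B2D+FF and Ctrl+FF mice form separate sets.

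Other genes were ranked by their likeness to each of the 7, taken as the smaller of the Pearson correlations of log2(FPKM + 1) over the 10 and over the 8 libraries, among 11030 genes. These correlations include the difference between diets. Serinc3 (0.89), Lpin1 (0.86) and Letm1 (0.86) were most like Fkbp5, and Cdc42ep2 (0.84), Fam13a (0.80) and Lpin1 (0.78) most like Zbtb16. Lpin1, which encodes a phosphatidic acid phosphatase and coactivator of fasting genes, was thus on both lists. In B2D it was 46.4, 8.34, 62.0, 21.4 and 30.3 FPKM, with its lowest value in B2D 2. Fkbp5 and Zbtb16 were also lowest in that mouse, so a ranking by likeness to them favours this order, and nothing further is read from it. Nnmt (0.85), Gm48199 (0.84) and Mat1a (0.84), the last an enzyme that makes S-adenosylmethionine, were most like Tat. Nipal1 (0.90), Srpr (0.89) and Ctps2 (0.89) were most like Lepr. Nr3c1 had Mme (0.92), Ptprd (0.91) and Mlec (0.88), Sgk1 had Gadd45g (0.79) and Bmp2 (0.75), and Tsc22d3 had the weakest set with Gm26588 (0.83), Gm10658 (0.76) and Borcs7 (0.69).

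Further genes of the pathway were then counted, with adjusted p-values from limma over all genes. The supply of hormone and the machinery of its receptor were followed in 18 genes, of which 17 were tested. In B2D 1 was lower and 0 were higher (5.88%, against 2.70% of all genes), and the median log2 fold change was -0.21. At an unadjusted p under 0.05 5 were lower and 1 higher, where 10.1% and 8.24% of all genes were. The 1 was Srd5a1, the steroid 5α-reductase that begins one route of glucocorticoid inactivation, at 31.7, 28.7, 26.0, 36.8 and 30.8 FPKM in Ctrl and 10.5, 5.80, 16.7, 4.99 and 11.4 FPKM in B2D. It was lower in B2D by 1.65 on the log2 scale (SE 0.26, adjusted p = 0.0082), and remained past the threshold under all 15 alternatives. In B2D+FF Srd5a1 was -0.83 (adjusted p = 0.0826), with all 4 mice below the controls, as for 6.44% of the genes tested.

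Serpina6, which encodes the corticosteroid-binding globulin that carries the hormone in blood, was the 1 gene of this list that was lower in B2D+FF, again with 0 higher (5.88%, against 4.45% of all genes) and a list median of -0.10. At an unadjusted p under 0.05 6 were lower and 0 higher, where 9.93% and 11.3% of all genes were. Serpina6 was 48.0, 40.0, 40.2 and 45.4 FPKM in Ctrl+FF and 6.60, 21.3, 22.0 and 12.1 FPKM in B2D+FF. Every B2D+FF mouse was below every Ctrl+FF mouse, as for 6.44% of the genes tested. The log2 fold change was -1.56 (SE 0.31, adjusted p = 0.0268). This call was lost without any 1 Ctrl+FF mouse, without B2D+FF 4 and with no filter, with adjusted p up to 0.0849. In B2D it was -0.57 (adjusted p = 0.462) with overlapping groups. Hsd11b1, which regenerates active corticosterone within the liver cell, was -0.13 in B2D (adjusted p = 0.586) and -0.63 in B2D+FF (adjusted p = 0.181). It was 1 of 5 of the 17 genes for which all B2D+FF mice were below all controls, against 6.44% of all genes. For 0 of the 17 they were all above. Fkbp4, the partner of HSP90 that exchanges with the product of Fkbp5, was -0.58 in B2D (adjusted p = 0.121) and -0.21 in B2D+FF (adjusted p = 0.318). Nr3c2, the mineralocorticoid receptor that also binds corticosterone, was at a mean of 2.35 FPKM in Ctrl and 2.12 FPKM in B2D, with a log2 fold change of -0.10 (adjusted p = 0.711), and at -0.08 in B2D+FF (adjusted p = 0.743).

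The list of 28 other genes that glucocorticoids induce in liver was tested in full. In B2D 2 were higher and 0 lower (7.14%, against 2.70% of all genes), and in B2D+FF 6 were higher and 0 lower (21.4%, against 4.45%). The list medians were 0.28 and 0.53. At an unadjusted p under 0.05 9 were higher and 0 lower in B2D, where 8.24% and 10.1% of all genes were. In B2D+FF 15 were higher and 0 lower, where 11.3% and 9.93% of all genes were. Many of these genes answer to fasting, insulin or cell stress as well, and the list was written with earlier results of these mice known. The count in B2D+FF was 1 without Ctrl+FF 1 or 2, 2 without Ctrl+FF 3, 3 without B2D+FF 3, 3 with upper-quartile rescaling and 0 with no filter. It was 7 with voom and reached at most 8 with 1 mouse left out. The count in B2D was 1 without Ctrl 2, Ctrl 4 or B2D 2, 5 without Ctrl 3, 6 with voom and 0 with no filter.

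Mt1, a metal-binding metallothionein, was the 1 gene of the list past the threshold in both experiments. It was 117, 56.4, 143, 78.7 and 37.3 FPKM in Ctrl and 248, 396, 181, 325 and 400 FPKM in B2D, a log2 fold change of 1.93 (SE 0.34, adjusted p = 0.0148). In Ctrl+FF it was 204, 159, 120 and 274 FPKM and in B2D+FF 406, 825, 472 and 527 FPKM, a log2 fold change of 1.57 (SE 0.28, adjusted p = 0.0179), a call lost without Ctrl+FF 1 or 2. With no filter both calls were lost (adjusted p = 0.0689 and 0.0565). The deficient mice were all above the controls in both experiments, as for 2.08% and 7.82% of the genes tested. Of the 28 genes on the list, 3 and 8 did the same, Mt1 included.

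The second gene higher in B2D was Cdkn1a, the cell cycle inhibitor p21, with a mean of 1.15 FPKM in Ctrl and 6.13 FPKM in B2D (log2 fold change 1.68, SE 0.33, adjusted p = 0.0221). Its call was lost without Ctrl 2, Ctrl 4 or B2D 2 and with no filter, and in B2D+FF it was 0.38 (adjusted p = 0.612). The 5 others higher in B2D+FF handle fuel and nitrogen or bind DNA. Lpin1 was 3.30, 4.81, 6.24 and 11.9 FPKM in Ctrl+FF and 18.9, 27.3, 26.7 and 15.2 FPKM in B2D+FF (log2 fold change 1.69, adjusted p = 0.0208), a call lost without Ctrl+FF 1, 2 or 3 and with no filter. Got1, the cytosolic aspartate aminotransferase, was 157, 75.8, 128 and 145 FPKM and then 241, 274, 350 and 372 FPKM (1.31, adjusted p = 0.0179), a call that held without any 1 mouse but not with no filter (adjusted p = 0.0545).

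Pck1, which catalyses the committed step of gluconeogenesis, had means of 542 and 975 FPKM in Ctrl+FF and B2D+FF (0.84, adjusted p = 0.0407), while in Ctrl and B2D both means were near 1261 FPKM (-0.00471, adjusted p = 0.991). Ass1, an enzyme of the urea cycle (0.75, adjusted p = 0.0455), and Cebpd, a transcription factor (0.55, adjusted p = 0.0465), completed the set. The calls of Pck1, Ass1 and Cebpd were each lost under at least 8 of 13 alternatives. Per1, a clock gene with a known response element, was 0.23 in B2D (adjusted p = 0.632) and 0.50 in B2D+FF (adjusted p = 0.266), and Klf9, a further early target, was 0.19 (adjusted p = 0.466) and 0.15 (adjusted p = 0.409). Of the 67 genes in the 4 pathway lists, 0 were past the threshold for the difference of the diet effect between the experiments by limma, 0 were by voom, and 10 had an unadjusted p under 0.05 (14.9%, near the 11.9% of all genes), with a smallest adjusted p of 0.193 for Pck1.

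**Figure D5:**
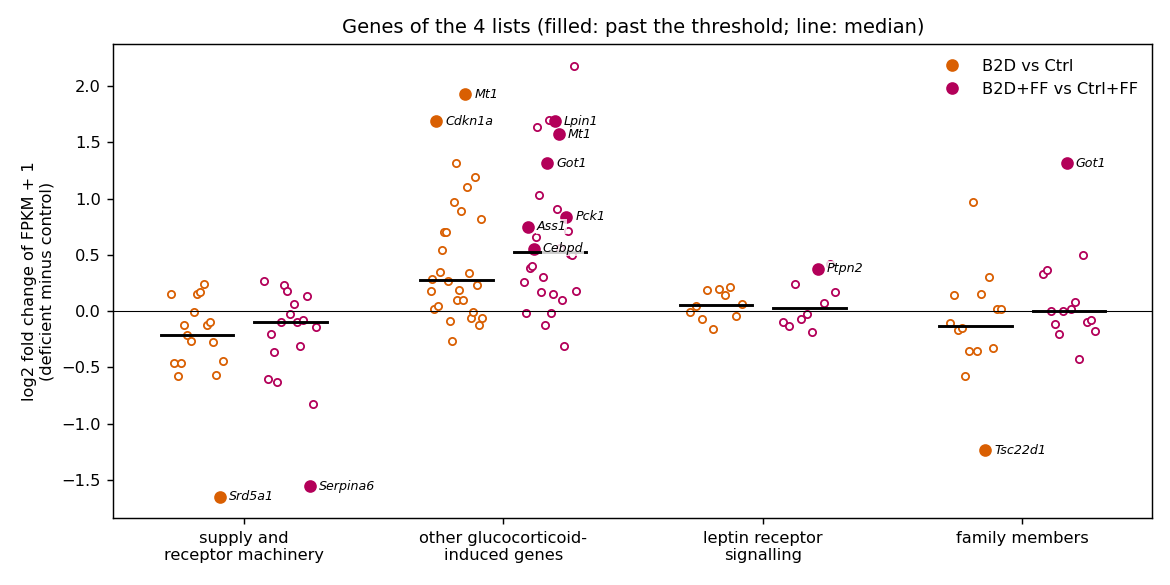
Log2 fold change of FPKM + 1 (vertical axis, deficient minus control) of each tested gene in the 4 pathway lists, without fenofibrate (orange) and with it (magenta). Filled, named points were past the threshold and black lines are list medians. The median of the other glucocorticoid-induced genes is at 0.28 without the drug and 0.53 with it, and the median of the leptin receptor signalling genes is near 0 in both.

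The genes that act with the leptin receptor moved little. Of 11 on that list 10 were tested, with a median log2 fold change of 0.05 in B2D and 0.02 in B2D+FF. In B2D 0 were past the threshold by limma, 0 at an unadjusted p under 0.05 and 0 by voom. In B2D+FF 2 of the 10 were higher and 0 lower at an unadjusted p under 0.05, where 11.3% and 9.93% of all genes were. Past the threshold 1 of the 10 was higher, where 2.24% of all genes were. This was Ptpn2, a phosphatase that dampens JAK and STAT signals, at 0.38 (SE 0.08, adjusted p = 0.0382), a call lost when any mouse but Ctrl+FF 4 was left out and in 9 of 13 alternatives in all. Leprot, the gene just upstream of Lepr that encodes a regulator of the receptor's place at the cell surface, was 6.60, 5.91, 6.76, 6.45 and 9.62 FPKM in Ctrl and 6.27, 7.50, 6.06, 8.33 and 5.15 FPKM in B2D. Its log2 fold change was -0.07 (95% interval from -0.38 to 0.23, adjusted p = 0.819), beside the 4.16-fold ratio of means of Lepr in the same mice. In B2D+FF it was 0.24 (adjusted p = 0.145), with all 4 mice above the controls, as for 7.82% of the genes tested. Jak2, the kinase on the receptor, was 0.04 (adjusted p = 0.868) and -0.14 (adjusted p = 0.511), and Stat3, the factor it activates, was 0.07 (adjusted p = 0.884) and 0.17 (adjusted p = 0.300). Socs3, a brake that STAT3 induces, was -0.04 (adjusted p = 0.919) and 0.42 (adjusted p = 0.444).

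Relatives of the 7 genes were counted last. All 14 were tested, and the medians were -0.13 and -0.00237. In each experiment 1 of them was past the threshold (7.14%, against 2.70% and 4.45% of all genes). Tsc22d1, a relative of Tsc22d3, was lower in B2D, with means of 7.17 and 2.34 FPKM (log2 fold change -1.24, SE 0.22, adjusted p = 0.0158). Ctrl 3 overlapped the B2D range, and the call was lost without Ctrl 2 or Ctrl 4 and with no filter. Got1, described above, was the 1 relative higher in B2D+FF. The other SGK kinases were not past the threshold: Sgk2 was -0.36 in B2D (adjusted p = 0.479) and 0.02 in B2D+FF (adjusted p = 0.965), and Sgk3 was 0.16 (adjusted p = 0.388) and 0.08 (adjusted p = 0.638).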

How the data were processed

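Liver mRNA libraries were made with a kit that keeps no strand, sequenced as paired ends, aligned to mm10 with STAR and counted per gene with featureCounts. The authors deposited 1 table of FPKM values per experiment (the methods name them RPKM), with gene coordinates on GRCm38. DESeq2 was their test and its results were not used here. When multiplied by gene length, 100% of the values fell on whole steps (within 0.05 reads), which gave the reads, and each table had been scaled on its own. The deposited FPKM were not rescaled. A gene entered the test if its mean FPKM reached 0.5, and limma 3.58.1 (R 4.3.3) was fitted to log2(FPKM + 1), with a trend and Benjamini-Hochberg adjustment at 0.05, each table alone, and the diet effects were compared in 1 fit of 18 libraries. The code was tested on simulated data. Mice are numbered within a group in accession order. The p-values set a difference of group means against the spread between mice of a group, which limma adjusts with the spread of other genes. The genes, the lists and the naming rule (the 7 genes, list genes past the threshold, 13 pathway genes named whatever their result, and the 3 genes most like each of the 7, of which 1 is not reported here) were chosen with earlier results of these data known. Promoters came from RefSeq on GRCm38.p6. Alternative settings were a smaller pseudocount (0.1), no filter, upper-quartile and quantile rescaling, limma voom on recovered reads, unadjusted p-values, and each mouse left out.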

Additional observations from a re-analysis of the deposited data

Results flagged for a closer look

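A value was picked out when its gap to the nearest mouse of its group, divided by the range of the group, passed Dixon's 95% limit. Of 116 groups looked at (29 named genes in 4 groups), 8 did, and chance alone picks out about 1 in 20. Among the 7 genes, Nr3c1 in B2D 3 (10.97 FPKM, next 8.79) and Lepr in B2D 4 (86.9 FPKM, next 40.6) were the highest of B2D. Among the pathway genes, the lowest values were Hsd11b1 in B2D+FF 1 (11.8 FPKM, next 27.0), Jak2 in B2D 2 (2.57 FPKM, next 3.05) and Lpin1 in Ctrl 2 (7.14 FPKM, next 16.1). The highest were Leprot in Ctrl 5 (9.62 FPKM, next 6.76), Socs3 in B2D+FF 2 (9.01 FPKM, next 3.49) and Stat3 in B2D 2 (16.8 FPKM, next 12.1). No named gene had all mice of one experiment moving one way and all of the other moving the opposite way.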

How the results depend on the processing

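All 196 recomputed log2 fold changes of the 7 genes kept their value to within 1 SD of the mice and none of the called ones changed sign. Leaving out 1 mouse of 4 or 5 cannot move a value by that much, and dropping the filter leaves it unchanged. Those settings could not have failed this measure, so no stability is read from the count. When mice were left out one at a time, the values without fenofibrate ran from 1.61 to 2.04 for Lepr, 0.57 to 0.81 for Sgk1, 0.55 to 1.08 for Tat, 0.52 to 1.25 for Zbtb16, 0.09 to 0.63 for Fkbp5, 0.16 to 0.40 for Tsc22d3 and -0.26 to -0.15 for Nr3c1. The number of the 7 past the threshold was 1 in the first experiment (from 0 with no filter to 2 with voom, without Ctrl 3 or without B2D 3) and 4 in the second (1 with no filter or without Ctrl+FF 1, and 2 without Ctrl+FF 2, B2D+FF 1 or B2D+FF 4). Over all genes, 313 were past the threshold in B2D and 529 in B2D+FF. These became 67 and 272 with no filter, which tests more genes, and 2124 and 2519 at an unadjusted p. They ran from 98 to 332 and from 175 to 596 with 1 mouse left out. For the difference between experiments 27 became 16 with a pseudocount of 0.1, 13 with voom and 1411 at an unadjusted p, and ran from 17 to 66. Upper-quartile rescaling turned the 263 lower and 266 higher genes of B2D+FF into 366 and 223, and the 4 of the 7 past the threshold there remained past it. The cause of these changes was not tested. No paired analysis was possible because the groups share no mouse numbers in the labels. Reads behind each of the 7 genes numbered at least 155 in every library, and 4 or 5 mice a group limit what could be detected.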
